A study of Mus musculus with 4 samples.

Results

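The genes described here are the 9 genes of growth hormone and prolactin receptor signalling that were listed by name, out of 32285 genes counted in every library: the receptors Ghr and Prlr, the kinase Jak2, the transcription factors Stat5a and Stat5b, and the feedback inhibitors Cish, Socs1, Socs2 and Socs3. The libraries came from dissociated ovaries of female mice at 8 weeks, all from the same litter, and were made with the 10x Genomics 3′ chemistry, in which each captured RNA molecule carries a unique molecular identifier (UMI). The control group, Fosl2F/F, carried loxP sites that flank coding exons of Fosl2, which encodes a subunit of the AP-1 transcription factor, and no Cre. The Fosl2cKO group carried the same floxed alleles and Cyp19a1-Cre, in which the aromatase promoter drives Cre in granulosa cells (GCs), the somatic cells that surround and feed the oocyte. Each group had 2 libraries. The study gives an n per group equal to the number of libraries, without saying in words that each library was a single mouse, and a p-value below measures the spread between these libraries.

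Growth hormone and prolactin are pituitary hormones that act on closely related class I cytokine receptors. Both receptors lack a kinase of their own and rely on the bound kinase Jak2, which phosphorylates Stat5a and Stat5b, and the Stat5 dimers then move to the nucleus and switch on target genes. Among those targets are Cish and the Socs genes, whose products block the receptor or the kinase, so that their RNA is often read as a trace of recent signalling. In the rodent ovary prolactin is known for keeping the corpus luteum active, and growth hormone for acting on follicle growth together with insulin-like growth factor 1.

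After filtering, 41538 cells remained, from 6760 to 19575 per library, with 104303269 to 111314200 UMIs per library and median depths of 11177, 3655, 12297 and 12465 UMIs per cell in Fosl2F/F replicates 1 and 2 and Fosl2cKO replicates 1 and 2. Fosl2F/F replicate 2 stood apart through its larger number of shallower cells. Between 10 and 38 cell barcodes were shared by any pair of libraries, at most 0.518% of a library. Fosl2 itself stood in GC-like cells at 160.3 and 167 CPM (UMIs of a gene per 1000000 UMIs of the same cells) in Fosl2F/F and at 166 and 114 CPM in Fosl2cKO (log2 fold change -0.25 ± 0.20 SE, edgeR quasi-likelihood test, Benjamini-Hochberg adjusted p = 1). The knockout was therefore not visible in the UMIs of the targeted gene, and whether deletion of the floxed coding exons also removes the counted 3′ end was not established here. At the protein level, the study reports depletion of Fosl2 in GCs of Fosl2cKO mice by immunoblot. The libraries are called by their labels below.

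Cell classes were rebuilt by clustering without the 9 genes and named from marker genes, and each name carries "-like" for that reason. GC-like cells numbered 15406 and held granulosa markers at summed levels of 8541 to 13607 CPM, against 1028 to 1832 CPM for luteal and 47.0 to 101 CPM for stromal markers. They were split into mural-like cells (the layer along the follicle wall, led by Comp, Lhcgr and Rhox8), cumulus-like cells (around the oocyte, with Cdh12 and Col18a1), atretic-like cells (with Itih5, Col11a1 and Pid1), mitotic-like cells and mitotic-antral-like cells. Levels below are CPM over all cells of a class in a library, and neighbouring classes are said to differ where the difference had the same sign in 4 of 4 libraries. Since only 3′ ends were counted, levels are compared between classes and not between genes.

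Ghr, the growth hormone receptor (chr15:3317760-3583492, minus strand, GRCm38), was highest in atretic-like GCs. The study itself used Ghr to mark atretic GCs in these data, and Prlr is a marker of its mural GCs. The GC classes here were named from other markers of those GC types. The place of Ghr in atretic-like and of Prlr in mural-like cells is therefore not an independent finding. Its level there was 1462 and 502 CPM for Fosl2F/F replicates 1 and 2, then 598 and 868 CPM for Fosl2cKO replicates 1 and 2 (the order kept below), a mean of 858 ± 431 CPM (SD, n = 4). The libraries of the groups interleaved, and Fosl2F/F replicate 1 lay well above the rest. In mural-like cells Ghr had 17.9, 29.1, 44.9 and 60.5 CPM, so that atretic-like cells held 13.3 to 81.4 times as much within a library. Cumulus-like cells, with 41.6 ± 11.8 CPM, lay 14.4 to 24.7 times below atretic-like cells in the same way. The GC compartment was thus not uniform for this receptor, and the dividing classes were also low, at 42.9 ± 28.6 CPM in mitotic-like and 22.4 ± 19.8 CPM in mitotic-antral-like cells.

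Outside the GCs, Ghr followed the connective tissue of the ovary. Stromal-like cells had 415, 453, 408 and 599 CPM, a mean of 469 ± 89.1 CPM, which was below atretic-like cells in 4 of 4 libraries by 1.11 to 3.52 times. Pericyte or smooth muscle-like cells, at 443 ± 75.5 CPM, could not be told apart from stromal-like cells, and epithelial-like cells had 368 ± 71.6 CPM. Endothelial-like cells (221 ± 23.9 CPM) and lymphatic endothelial-like cells (209 ± 91.7 CPM) did not differ beyond their spread. Among steroid-making cells Ghr was lower, at 111 ± 60.9 CPM in theca-like and 78.5 ± 24.5 CPM in luteal-like cells. The lowest levels were those of blood-derived cells, 14.1 ± 0.818 CPM in NK or T-like and 11.6 ± 3.21 CPM in macrophage-like cells.

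Prlr, the prolactin receptor (chr15:10177238-10349180, plus strand), had a different map, with its highest levels in cells that make steroids. Luteal-like cells, the cells of the corpus luteum that forms from the follicle after ovulation, held 1012, 2331, 2268 and 2899 CPM, a mean of 2128 ± 796 CPM. Theca-like cells, the androgen-producing outer layer of the follicle, followed with 1048, 995, 964 and 882 CPM (972 ± 69.5 CPM). Luteal-like cells were higher than theca-like cells in 3 of 4 libraries only, and in Fosl2F/F replicate 1 the ratio was 0.966. An unnamed cluster led by Abcb1b, Coro2a and Pik3c2g reached 1976, 1951, 1567 and 2312 CPM, which did not differ from luteal-like cells beyond their spread and exceeded theca-like cells in 4 of 4 libraries.

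Within the GCs Prlr was a gene of the mural layer. Mural-like cells had 1087, 458, 729.8 and 339 CPM, where replicate 1 was the higher library of each group and the groups overlapped. Cumulus-like cells held 24.7, 58.5, 15.9 and 24.3 CPM, and the mural-like level was 7.82 to 46.0 times as high within a library. Atretic-like cells had 116 ± 19.7 CPM, 2.87 to 10.4 times below mural-like cells. Mural-like cells also exceeded mitotic-like cells (143 ± 79.7 CPM) by 3.48 to 7.36 times in 4 of 4 libraries. Stromal-like cells were at 58.6 ± 21.4 CPM and endothelial-like cells at 27.0 ± 19.1 CPM. The receptors therefore differed in this pair of GC classes, with Ghr higher in atretic-like and Prlr in mural-like cells. The order of the GC classes as a whole was not reversed, since cumulus-like cells were low for both receptors.

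Shares of cells with a UMI were taken from 2000 UMIs drawn from each cell, which left out 20.3% of the cells of Fosl2F/F replicate 2 and 4.22% to 6.17% of the other libraries. A Prlr UMI was found in 67.0%, 91.7%, 87.2% and 92.0% of luteal-like cells, against 74.8% to 98.4% without thinning. In mural-like cells the shares were 76.8%, 46.9%, 61.8% and 39.6%, and in atretic-like cells 16.2% ± 2.2 (SD, n = 4). The lowest share among the named classes was 3.65% ± 4.0 in epithelial-like cells, a level that free RNA could give, with median depths of 3780 to 13390 UMIs there and 4232 to 16590 in mural-like cells. Cumulus-like cells, at 5.65% ± 3.4, lay close to it. For Ghr, 53.4% ± 12 of atretic-like, 51.2% ± 5.0 of stromal-like and 6.01% ± 2.5 of mural-like cells held a UMI, and NK or T-like cells gave the lowest share, 1.57% ± 1.3. Cells with a Ghr UMI in the atretic-like class held a Prlr UMI in 9.43% to 16.4%, and cells without one in 16.6% to 25.6%, so that Prlr was less often found beside Ghr in 4 of 4 libraries of this class. In mural-like cells the order was the opposite in 4 of 4 libraries, with Prlr in 46.2% to 78.8% of cells with and 38.9% to 76.7% of cells without a Ghr UMI, and it was higher beside Ghr in 3 of 4 libraries in theca-like and stromal-like cells and in 1 of 4 in luteal-like cells and in GC-like cells as a whole.

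**Figure D1:**
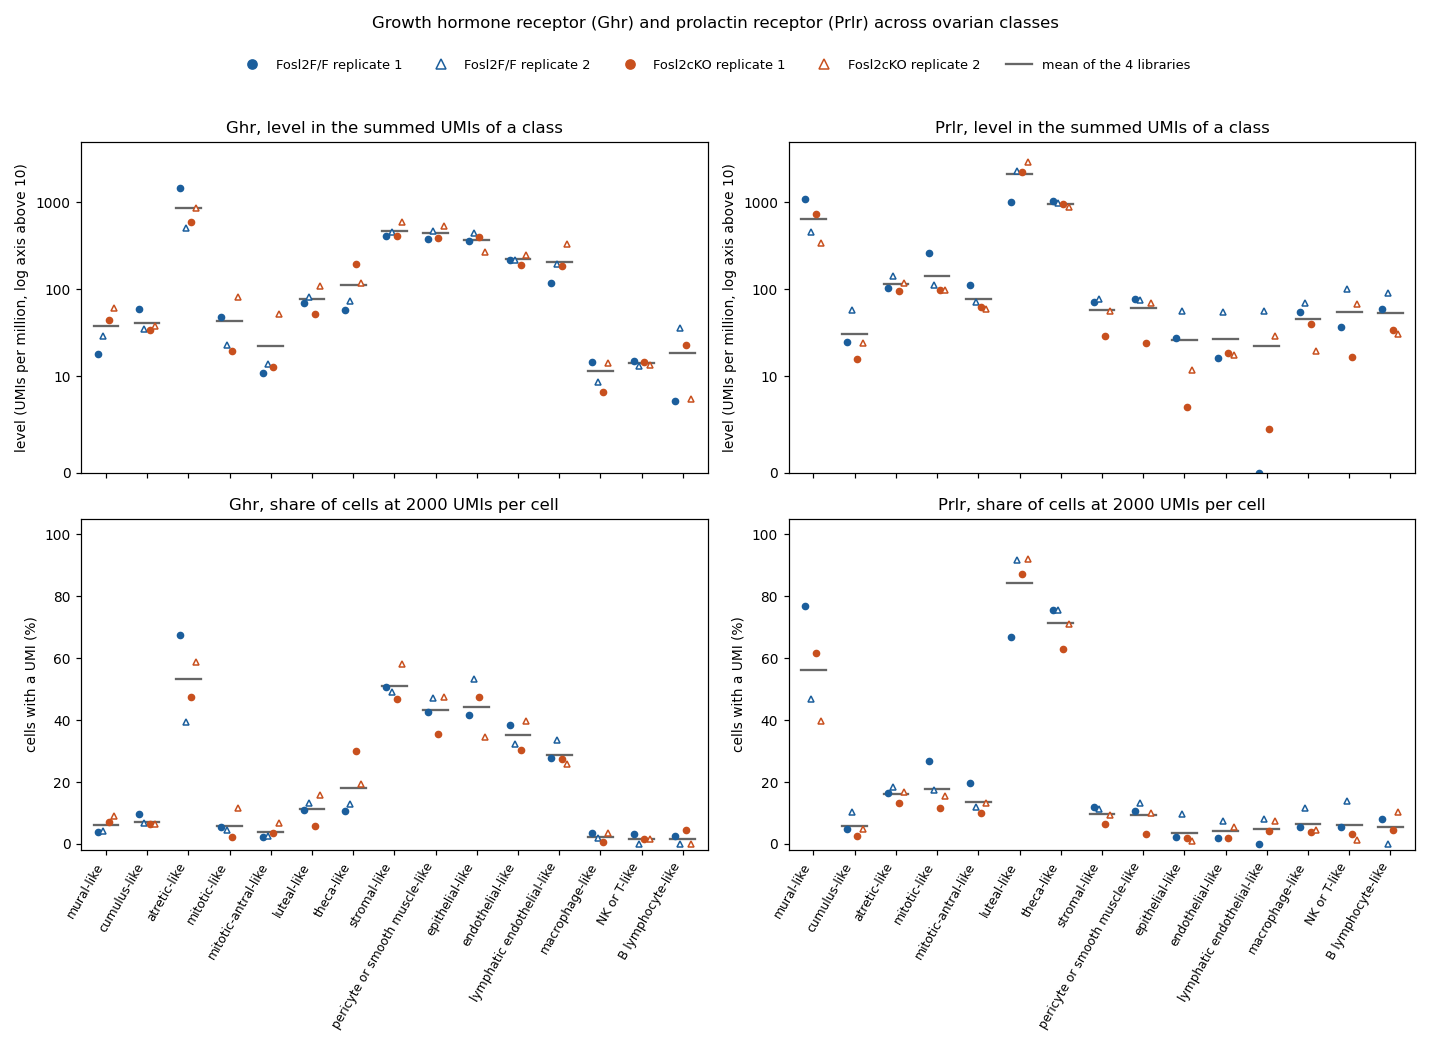
Levels of Ghr and Prlr (upper panels, CPM, log axis above 10) and shares of cells with a UMI at 2000 UMIs per cell (lower panels, percent) in 15 named classes, with 1 point per library and a line at the mean of the 4 libraries. Ghr peaks in atretic-like cells (mean 858 CPM) and stays high in stromal-like (469 CPM) and pericyte or smooth muscle-like cells (443 CPM), while Prlr peaks in luteal-like (2128 CPM), theca-like (972 CPM) and mural-like (653 CPM) cells.

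The genes most like each receptor were taken from 11294 other genes by Pearson's r of log2(mean CPM + 1) over the 15 named classes, which share libraries and depth. For Prlr they were Lhcgr (r = 0.979), the luteinizing hormone receptor, Fdx1 (0.960), the electron donor of mitochondrial steroid-making enzymes, Me1 (0.952), the cytosolic malic enzyme, Mgarp (0.939) and Cst8 (0.935). Each of these genes was highest in luteal-like or theca-like cells. For Ghr they were Cald1 (0.900), which encodes the actin-binding protein caldesmon, Ston1 (0.876), Klf9 (0.876), a zinc-finger transcription factor, Wtip (0.872) and Rbms3 (0.862). These were highest in pericyte or smooth muscle-like or stromal-like cells. Across the same classes Ghr and Prlr themselves had r = -0.0953.

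Transcripts of the hormones were all but absent from the ovary. Prl had 1 UMI, in Fosl2F/F replicate 2, and Gh had 1 UMI, in the library labelled Fosl2cKO replicate 2, over all cells kept.

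Jak2, the kinase that both receptors share (chr19:29251828-29313080, plus strand), did not follow either of them. It was highest in NK or T-like cells, with 205, 249, 199 and 204 CPM, followed by endothelial-like cells at 182 ± 51.2 CPM, epithelial-like cells at 169 ± 54.8 CPM, B lymphocyte-like cells at 164 ± 28.1 CPM and macrophage-like cells at 158 ± 18.9 CPM, and no neighbours in this run differed in 4 of 4 libraries. Stromal-like cells had 47.0, 88.1, 163 and 60.4 CPM. GC-like cells as a whole held 46.5 ± 10.9 CPM and luteal-like cells, the class with the most Prlr, 37.5 ± 10.1 CPM. Endothelial-like cells exceeded stromal-like cells by 1.24 to 2.87 times in 4 of 4 libraries. Over the 15 classes Jak2 had r = -0.598 with Prlr and r = -0.110 with Ghr.

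Stat5a and Stat5b lie next to each other (chr11:100859351-100885169, plus strand, and chr11:100780731-100850724, minus strand) and encode near-identical proteins. The study counted only reads that mapped uniquely, so a read matching both genes would count for neither. Both genes were high in luteal-like cells. Stat5a had 72.3, 75.5, 59.7 and 101 CPM in luteal-like cells and 95.8, 67.2, 59.2 and 74.6 CPM in mitotic-antral-like cells, means of 77.2 ± 17.4 and 74.2 ± 15.7 CPM that could not be ordered. Luteal-like cells held 2.27 to 5.52 times the Stat5a level of stromal-like cells (22.0 ± 3.4 CPM). Theca-like cells, rich in Prlr, had only 15.8 ± 3.69 CPM. Stat5b was highest in NK or T-like cells at 217 ± 48.5 CPM and in luteal-like cells at 157, 169, 118 and 247 CPM, and these classes did not differ beyond their spread. The Stat5b level of luteal-like cells was 2.28 to 2.46 times that of stromal-like cells, a narrow range over 4 libraries. Among the other named classes Stat5b ran from 39.0 ± 4.30 CPM in epithelial-like to 95.99 ± 23.8 CPM in B lymphocyte-like cells, with cumulus-like cells at 91.2 ± 17.2 CPM.

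The feedback inhibitors were each distributed in their own way. Socs2, a ligase adaptor best known for restraining growth hormone signalling (chr10:95385362-95417180, minus strand), was a GC gene. Mural-like cells had 1486, 1148, 751 and 1018 CPM, and mitotic-like (830.3 ± 90.1 CPM), mitotic-antral-like (818 ± 86.2 CPM) and cumulus-like cells (749.5 ± 60.2 CPM) did not differ from their neighbours in the order. Atretic-like cells, the GC class with the most Ghr, had the least Socs2 of the 5 GC classes, 385, 321, 381 and 392 CPM, 1.97 to 3.86 times below mural-like cells. Luteal-like cells held 309.8 ± 77.4 CPM and macrophage-like cells 39.0 ± 17.6 CPM. A Socs2 UMI was present in 84.8% ± 6.9 of mural-like, 48.0% ± 3.6 of atretic-like and 6.45% ± 2.5 of macrophage-like cells at 2000 UMIs per cell, the last of these being the lowest share. Among GC-like cells, which pool classes that differ in both genes, those with a Ghr UMI held a Socs2 UMI in 50.5% to 58.5% and those without in 73.0% to 82.5%. Within atretic-like cells the shares were 37.1% to 46.6% and 47.4% to 60.5%, with 0 of 4 libraries higher beside Ghr. Within mural-like cells the shares were 69.2% to 88.5% and 76.3% to 92.4%, with 1 of 4 libraries higher beside Ghr, and in luteal-like cells 4 of 4 were higher beside Ghr.

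Socs3, an inhibitor induced by many cytokines of the interleukin-6 family (chr11:117966079-117970047, minus strand), had the reverse pattern. It was highest in stromal-like cells, with 711, 765, 1045 and 528 CPM, and low in mural-like cells at 63.3 ± 17.2 CPM and mitotic-antral-like cells at 42.5 ± 11.3 CPM. Endothelial-like cells had 433 ± 55.6 CPM, below stromal-like cells in 4 of 4 libraries. Of the 8 other members, Ghr was correlated with Socs3 most closely over the classes, with r = 0.740.

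Cish, the first discovered member of the family and a direct Stat5 target (chr9:107296026-107302784, plus strand), was highest in NK or T-like and luteal-like cells here, and B lymphocyte-like cells, at 4.55 ± 9.10 CPM, were near the bottom of the order. NK or T-like cells held between 66.4 and 116 CPM, with a mean of 100.2 ± 23.0 CPM. Luteal-like cells held 68.8, 204, 42.5 and 48.4 CPM, 7.44 to 17.4 times the level of mural-like cells (7.62 ± 3.27 CPM), although mural-like cells also carry Prlr. The value of 204 CPM, from Fosl2F/F replicate 2, stood far above the other 3 luteal-like sums, and 29.1% of its luteal-like cells held a Cish UMI against 5.25% to 10.2% in the other libraries. In GC-like cells the share was 1.53% ± 0.49.

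Socs1, which blocks the Jak kinases themselves and is induced by interferons among others (chr16:10782240-10785536, minus strand), was sparse. It had 602, 1210, 4838 and 3166 UMIs over all cells, or 5.58, 11.6, 43.5 and 30.1 CPM. NK or T-like cells were highest among the named classes at 49.6 ± 36.1 CPM, followed by stromal-like, theca-like and pericyte or smooth muscle-like cells at means of 37.3 to 41.2 CPM. The SDs were about as large as the means, with differences both between the groups and between the Fosl2cKO libraries.

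**Figure D2:**
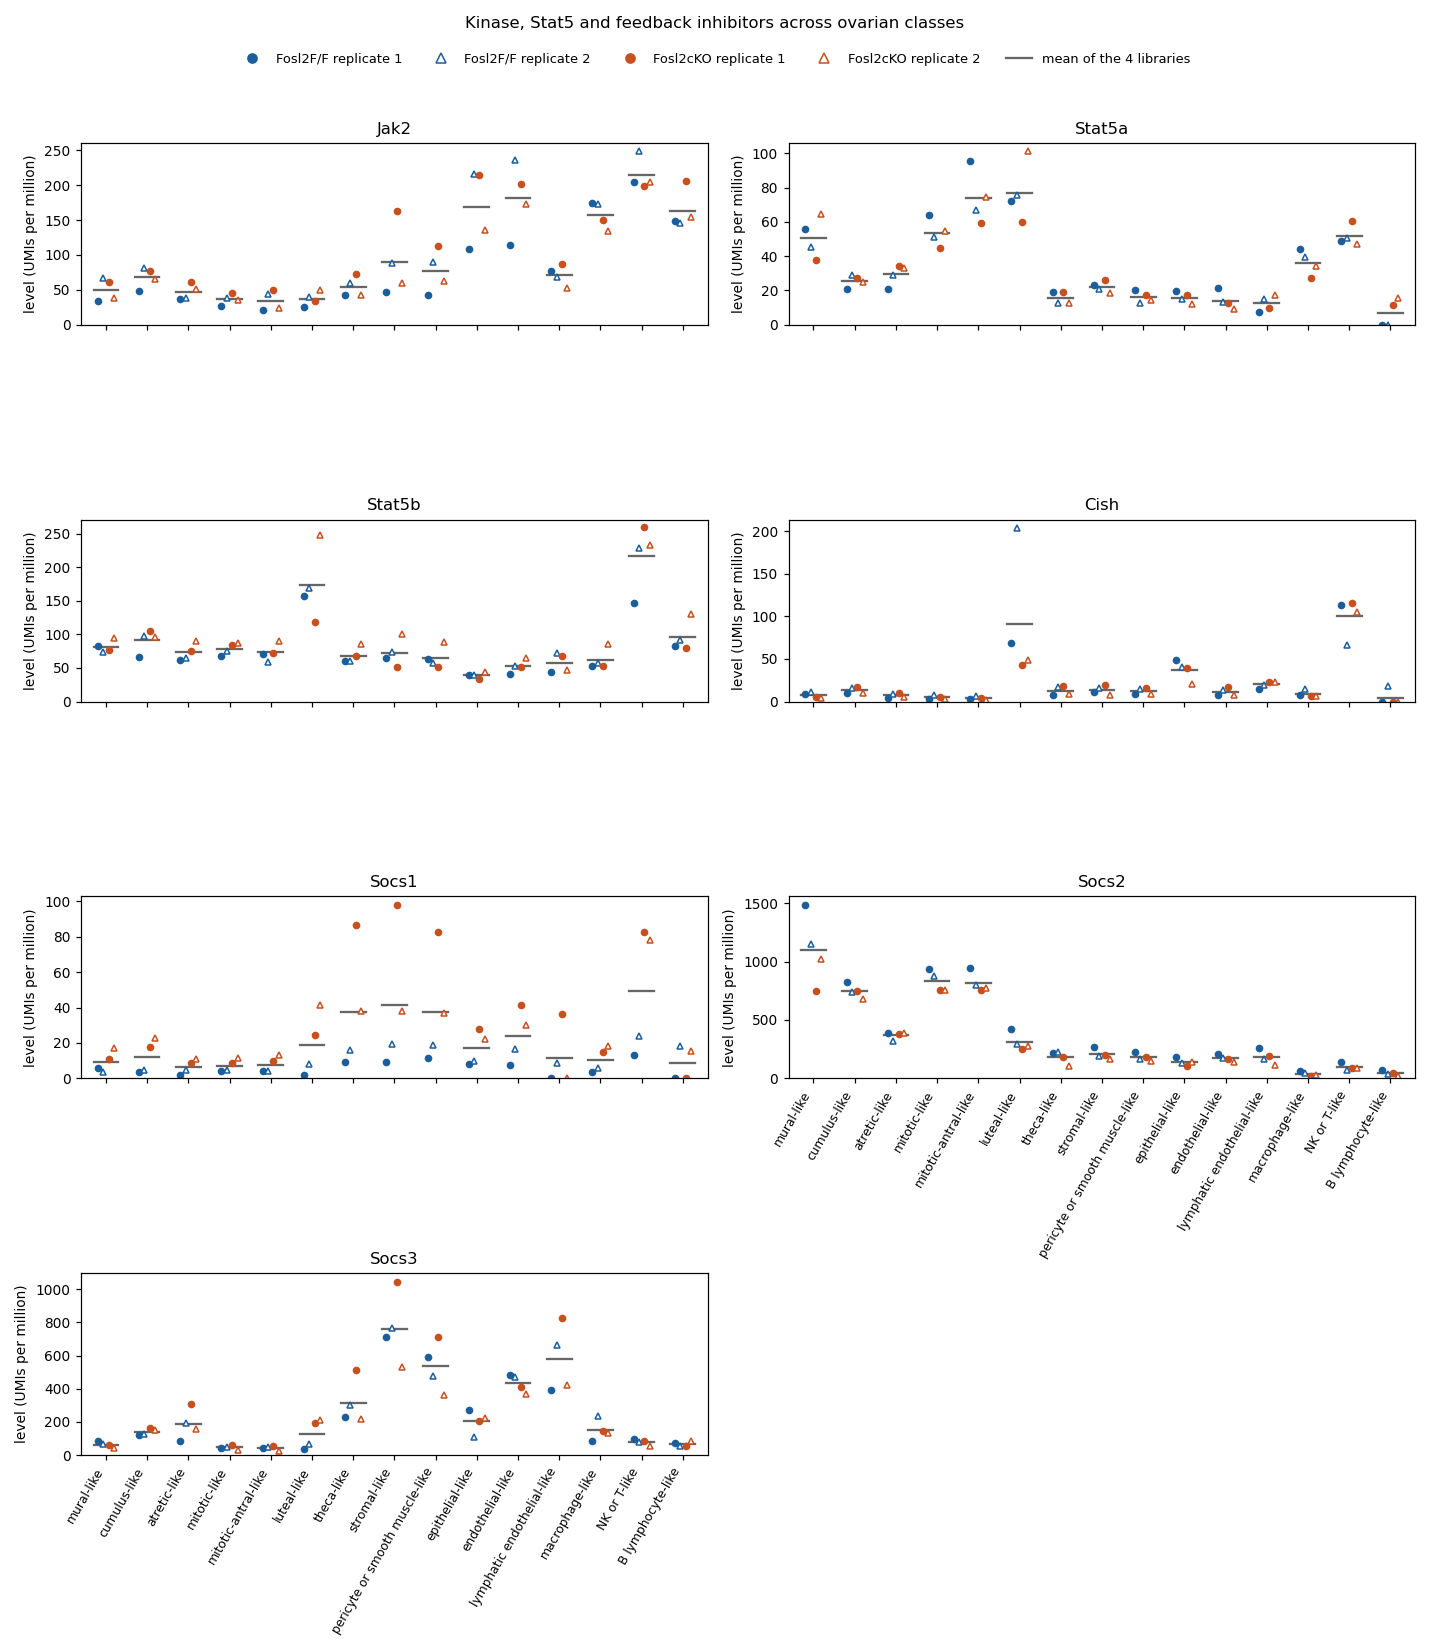
Levels in CPM of Jak2, Stat5a, Stat5b, Cish, Socs1, Socs2 and Socs3 in 15 named classes, with 1 point per library and a line at the mean of the 4 libraries; each panel has its own axis from 0. Socs2 is highest in mural-like cells (mean 1101 CPM) and Socs3 in stromal-like cells (762 CPM), and the Socs1 points of the libraries labelled Fosl2cKO lie above those of Fosl2F/F in most classes.

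Stat5 dimers bind the palindrome TTCNNNGAA, so the RefSeq promoter windows (250 bases before to 50 bases after a start site, GRCm38.p6) were searched for it, which covers both strands at once because the motif is its own reverse complement. Windows were found for 8 of the 9 genes, Socs2 having none in the table. The motif was present in a window of 3 of these 8, Cish, Socs3 and Prlr, against 9.55% of all 27025 genes, and in 8.30% of all 32851 windows. Cish had 2 copies 2 bases apart, starting at the 1st and 12th transcribed base of the RefSeq model in its 5′ untranslated exon, and only 0.457% of all windows held 2 or more copies. The Socs3 copy lay 154 bases before its RefSeq start and the Prlr copy 110 bases before 1 of its 3, both within introns of the longer GENCODE models. The stretches are shown because these genes carry the letters a Stat5 dimer reads, with the motif in capitals, each read 5′ to 3′ on the strand of its gene, from chr9:107296654-107296683, chr11:117969502-117969530 and chr15:10223786-10223814.
Cish: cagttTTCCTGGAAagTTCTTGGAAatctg
Socs3: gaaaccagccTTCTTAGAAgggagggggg
Prlr: gcaaaatgagTTCTAGGAAtaagggatat
A match describes these letters only, and binding was not measured.

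The conditions were compared class by class on UMIs summed per library, with edgeR's quasi-likelihood test over all genes, and a gene was called at an adjusted p under 0.1 and an absolute log2 fold change over 0.25. All 9 genes passed the low-count filter in all 11 classes tested. Calls were rare. In GC-like cells as a whole none of the 9 genes was called, where 0.0058% of all 17245 genes tested were. An unadjusted p under 0.05 was reached by 814 genes there, Socs1 among them. DESeq2 called Socs1 in these cells, among 170 of 14829 genes. No member was called in mural-like (0.0157% of genes called), atretic-like (0.00751%), mitotic-like (0.00688%), mitotic-antral-like (0.00814%), theca-like (0.0389%), luteal-like (0.0156%), macrophage-like (0.252%) or endothelial-like cells (0.213%). The unadjusted p was under 0.05 for 2 to 5 of the 9 genes in these 8 classes, and for 490 of 12867 (theca-like) to 1392 of 12794 genes (luteal-like) in all. DESeq2 called Socs1 in theca-like cells, among 32 of 13430 genes, and Cish, Socs1 and Socs3 in luteal-like cells, among 447 of 13573. In cumulus-like cells (0.0152% of genes called) and stromal-like cells (0.198%) 1 member was called, Socs1 in each.

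Socs1 rose in the cumulus-like and stromal-like cells of the libraries labelled Fosl2cKO. In stromal-like cells it had 9.43 and 19.2 CPM (51 and 136 UMIs) in Fosl2F/F and 97.9 and 38.2 CPM (917 and 375 UMIs) in Fosl2cKO, a log2 fold change of 2.25 ± 0.43 (SE, edgeR adjusted p = 0.0628). In cumulus-like cells the values were 3.68 and 4.49 CPM (23 and 45 UMIs) against 17.9 and 22.5 CPM (142 and 139 UMIs), a log2 fold change of 2.24 ± 0.30 (edgeR adjusted p = 0.0961). The groups did not overlap in either class. Both Fosl2cKO libraries were likewise the higher ones for 13.7% of genes tested in stromal-like and 18.8% in cumulus-like cells. Both calls lay close to the threshold: over 13 other settings the adjusted p ran from 5.68e-09 to 0.564 in cumulus-like cells, where the call held in 7, and from 1.17e-10 to 1 in stromal-like cells, where it held in 8. Without Fosl2F/F replicate 1 or without Fosl2F/F replicate 2 neither class kept the call, with adjusted p of 0.564 and 0.514 in cumulus-like and 1 and 0.731 in stromal-like cells. Without the library labelled Fosl2cKO replicate 1 the log2 fold change in stromal-like cells was 1.36, against 2.79 without replicate 2. Over the 13 settings the log2 fold change ran from 2.04 to 2.43 in cumulus-like and from 1.36 to 2.83 in stromal-like cells.

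The same arrangement was seen in classes where Socs1 was not called. Both libraries labelled Fosl2cKO lay above both Fosl2F/F libraries in 10 of the 10 tested classes that share no cells, as they did for 1.57% of the 9035 genes tested in all 10. In GC-like cells Socs1 had 3.79 and 4.15 CPM against 10.5 and 12.7 CPM, a log2 fold change of 1.53 ± 0.24 (edgeR adjusted p = 0.351). In theca-like cells it had 9.09 and 15.9 CPM against 86.5 and 37.9 CPM (2.23 ± 0.42, edgeR adjusted p = 0.219). Macrophage-like cells gave 3.42 and 5.64 CPM, against 14.96 and 18.2 CPM, from only 7 and 12 UMIs in Fosl2F/F.

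Of the 5 named classes not tested, NK or T-like cells gave 13.4 and 23.9 CPM, against 82.8 and 78.4 CPM of Socs1, with 9 UMIs in each Fosl2F/F library. In pericyte or smooth muscle-like cells it ran at 11.3 and 18.7 CPM, against 82.6 and 36.7 CPM. Epithelial-like cells gave 8.20 and 9.99 CPM, against 28.0 and 22.0 CPM. In lymphatic endothelial-like and B lymphocyte-like cells, with as few as 30 cells in a library, the groups overlapped. The classes are not independent, since each comes from the same 4 libraries, and a difference between the libraries cannot be told apart from a difference between the conditions at 2 libraries a group. Median mitochondrial shares were 3.27% and 2.74% in Fosl2F/F and 2.83% and 2.75% in Fosl2cKO, and total UMIs differed little between the groups.

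**Figure D3:**
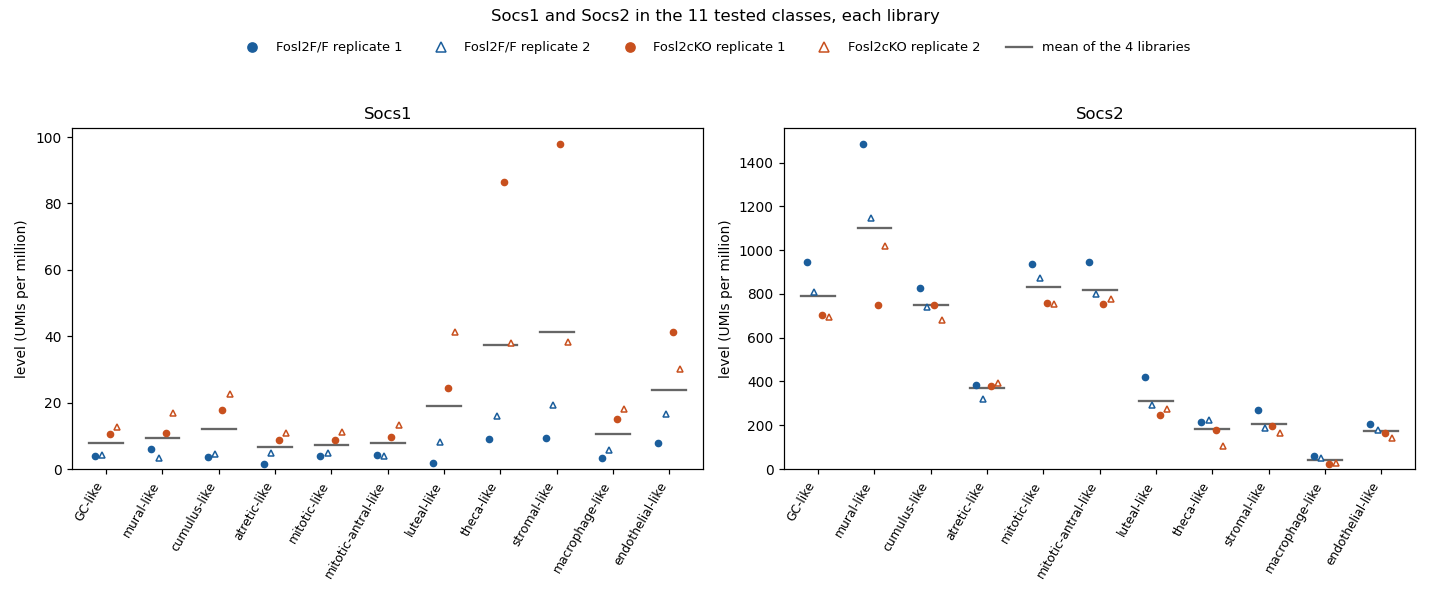
CPM levels of Socs1 and Socs2 in the 11 tested classes, with 1 point per library and a line at the mean of the 4 libraries; GC-like cells contain the 5 GC classes beside them. For Socs1 both Fosl2cKO points lie above both Fosl2F/F points in every class shown, from 10.5 and 12.7 against 3.79 and 4.15 CPM in GC-like cells to 97.9 and 38.2 against 9.43 and 19.2 CPM in stromal-like cells.

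Whether the GC compartment, where Cre acts, differed from stromal-like cells of the same libraries was tested as an interaction of condition with class, with library as a fixed term. None of the 9 genes was called, and 0% of the 17510 genes tested were. No member had an unadjusted p under 0.05 in this edgeR test, against 599 of all genes, and DESeq2 was not run for it. For Socs1 the log2 fold change in GC-like cells minus that in stromal-like cells was -0.65 ± 0.55 (edgeR adjusted p = 1). For Ghr and Prlr it was -0.08 ± 0.62 and 0.07 ± 0.59, so a difference of about 1 log2 unit in either direction lay within 2 SE.

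Socs2 was not called by the edgeR test in any class. Both Fosl2cKO libraries lay below both Fosl2F/F libraries in 7 of the 10 classes, and 3.21% of genes did so in at least that many. In GC-like cells it had 946 and 810.5 CPM against 706 and 694 CPM, a log2 fold change of -0.36 ± 0.18 (edgeR adjusted p = 1). The largest difference was in macrophage-like cells, with 58.6 and 48.9 CPM against 22.4 and 25.8 CPM (-1.21 ± 0.28, edgeR adjusted p = 0.222), from 64 to 120 UMIs per library, and granulosa markers in that class summed to 584 and 427 CPM against 202 and 216 CPM. Such markers were also lower in both Fosl2cKO libraries in GC-like cells (13607 and 9130 against 8541 and 8955 CPM). Endothelial-like cells had 575 and 411 against 226 and 227 CPM, while in luteal-like cells the groups overlapped. The part of granulosa markers in the Socs2 differences was not tested. Other settings did call Socs2 in macrophage-like cells, each by edgeR. These were no low-count filter (adjusted p = 0.0202, 284 of 19546 genes called) and the replicate number as a block (0.0951, 72 of 10330). A block with those numbers crossed between the groups, chosen after seeing the data, also did (0.0649, 111 of 10330).

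Prlr lay lower in both libraries labelled Fosl2cKO in 6 of the 10 classes, against 5.28% of genes in at least that many, and was not called by the edgeR test in any. Other settings, each by edgeR at an adjusted p under 0.1, did call it lower. These were no low-count filter in cumulus-like, mitotic-like, mitotic-antral-like and macrophage-like cells, and the crossed block in macrophage-like cells. All genes called without the filter were 234 of 22308 in cumulus-like, 597 of 23385 in mitotic-like, 745 of 21294 in mitotic-antral-like and 284 of 19546 in macrophage-like cells. With the crossed block 111 of 10330 were called in macrophage-like cells. In GC-like cells Prlr had 385 and 136 CPM against 173 and 106 CPM (-0.96 ± 0.50, edgeR adjusted p = 1), and the value rested on Fosl2F/F replicate 1, without which the log2 fold change was 0.06. GC mural markers in GC-like cells summed to 3393 and 1341 against 1058 and 1129 CPM, and mural-like cells were 1419 of 4426, 994 of 6529, 364 of 2121 and 291 of 2330 GC-like cells. Their part in the Prlr difference was not tested. In mural-like cells it was -0.59 ± 0.47 with the groups overlapping, and 0.19 without that library. In stromal-like cells it was -0.80 ± 0.32 and in macrophage-like cells -1.07 ± 0.34, at mean levels of 58.6 and 45.6 CPM. Luteal markers in these classes, whose values stand with Akr1c18 at the end, were lower in both Fosl2cKO libraries in macrophage-like cells and overlapped in stromal-like cells. GC mural markers summed to 134 and 104 against 61.2 and 57.2 CPM in stromal-like cells and to 115 and 90.8 against 30.8 and 34.3 CPM in macrophage-like cells. The part of either list in the Prlr differences was not tested. In luteal-like cells, the class with the most Prlr, the log2 fold change was 0.50 ± 0.52, the only one above 0 among the 11 classes.

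Ghr showed no common direction. In atretic-like cells the log2 fold change was -0.54 ± 0.52 and in stromal-like cells 0.20 ± 0.32. In mural-like cells, where the level was low, it had 17.9 and 29.1 CPM against 44.9 and 60.5 CPM (1.13 ± 0.30, edgeR adjusted p = 0.677). Atretic GC markers in mural-like cells summed to 88.3 and 90.9 against 151 and 134 CPM, and their part in this difference was not tested. Ghr was called higher in mural-like and mitotic-antral-like cells without a low-count filter. All genes called without the filter were 311 of 22324 in mural-like and 745 of 21294 in mitotic-antral-like cells. In theca-like cells the Ghr levels were 57.5 and 74.3 CPM, against 194 and 119.5 CPM (1.17 ± 0.31, edgeR adjusted p = 0.638). Atretic GC markers there summed to 139 and 238 against 310.1 and 258 CPM. That list is not particular to GCs, since it reached 1550 to 2074 CPM in pericyte or smooth muscle-like cells, and its part was not tested. In GC-like cells as a whole the levels were 295, 69.7, 102 and 244 CPM, high in Fosl2F/F replicate 1 and the library labelled Fosl2cKO replicate 2 and low in the other 2, with 835 of 4426, 613 of 6529, 341 of 2121 and 564 of 2330 GC-like cells in the atretic-like class. An unnamed GC cluster led by Cited1 and Amh, genes of small growing follicles, showed the same split more sharply, at 206, 30.04, 11.2 and 199 CPM. Atretic GC markers in that cluster followed the same split, at 509, 137, 61.7 and 318 CPM, and their part in it was not tested.

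Jak2, Stat5a and Stat5b moved least. Over the 11 classes the Stat5b log2 fold change ran from 0.03 to 0.31, that of Stat5a from -0.57 to 0.37 and that of Jak2 from -0.33 to 0.74, and none was called.

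**Figure D4:**
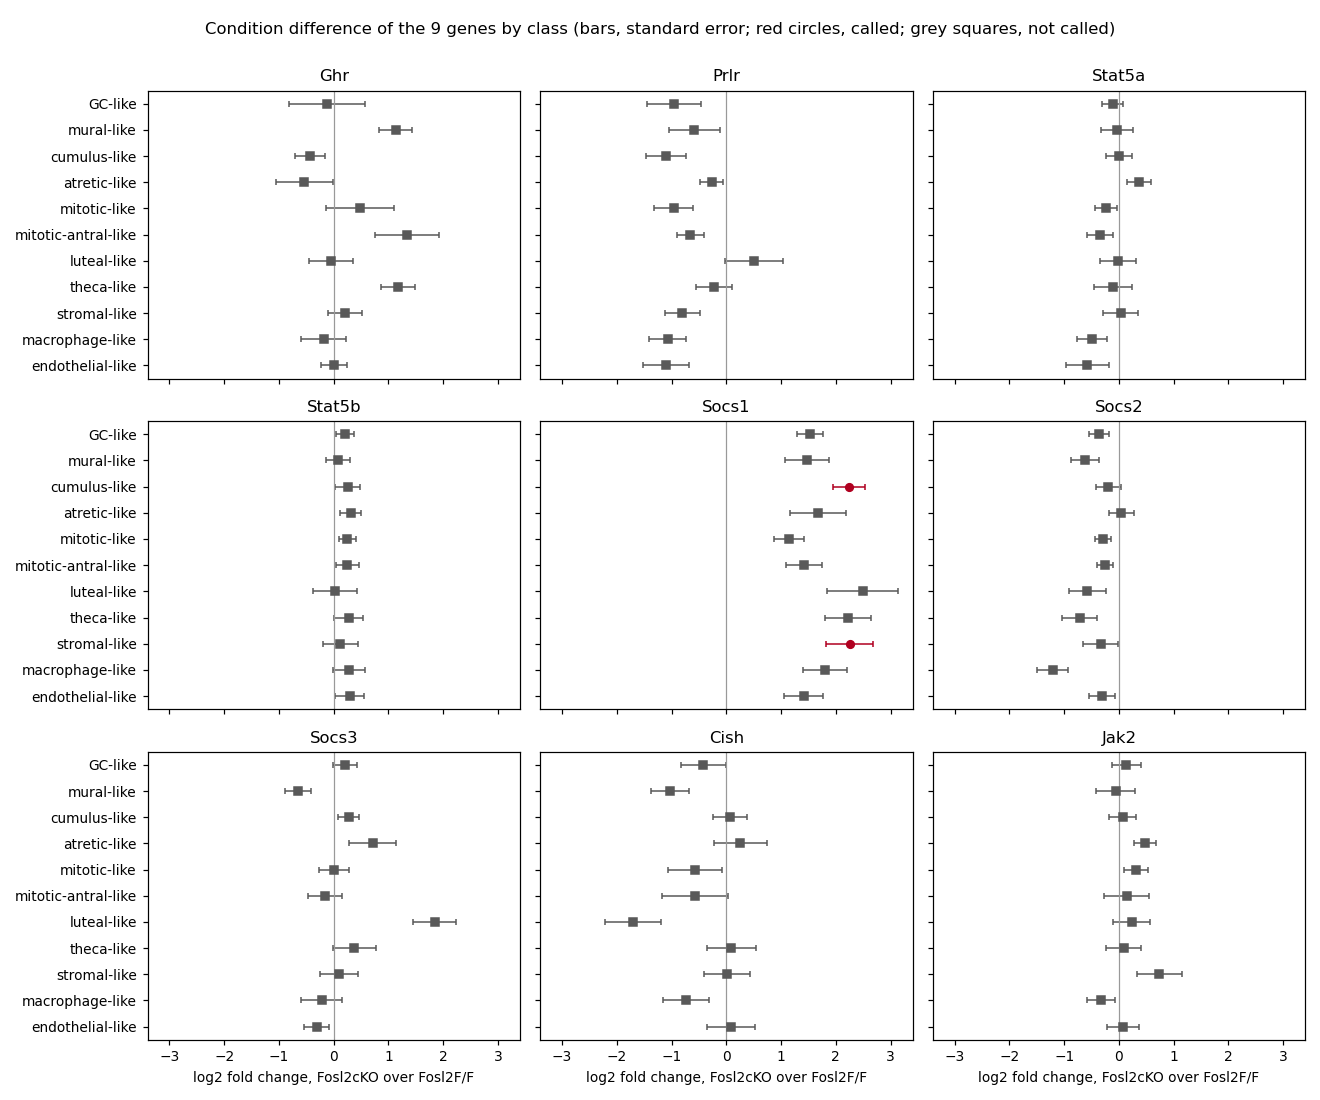
Log2 fold changes (Fosl2cKO over Fosl2F/F, with standard errors as bars) of the 9 genes in GC-like cells and 10 further classes. Red circles mark the only calls, Socs1 in cumulus-like (2.24) and stromal-like cells (2.25), and Socs1 lies to the right of 0 in all 11 classes while Stat5b stays between 0.03 and 0.31.

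Luteal-like cells, which held the most Prlr, differed in makeup between libraries. They joined 2 clusters, 1 led by Ces2a, Bhmt and Plin5 and 1 led by Onecut2, Sfrp2 and Ptgfr. The former held 56 of 159, 840 of 1164, 293 of 307 and 232 of 267 luteal-like cells, so that Fosl2F/F replicate 1 was mostly of the latter kind. Prlr had 563, 2577, 2292 and 3053 CPM in the former and 1034, 1357, 1834 and 1693 CPM in the latter, from 91 UMIs in the smallest sum. The latter cluster held 14 cells in Fosl2cKO replicate 1, below the minimum of 20 set for classes. Socs3 was 34.3 and 68.4 CPM in Fosl2F/F and 191 and 213 CPM in Fosl2cKO luteal-like cells (1.84 ± 0.39, edgeR adjusted p = 0.276). Cish had 68.8 and 204 CPM against 42.5 and 48.4 CPM (-1.71 ± 0.51, edgeR adjusted p = 0.372), and the log2 fold change was -0.72 without Fosl2F/F replicate 2. The part of the cluster makeup in these differences was not tested. In mural-like cells Socs3 went the other way (log2 fold change -0.65 ± 0.24, edgeR adjusted p = 0.983). Cish was lower there as well (-1.04 ± 0.35, edgeR adjusted p = 0.937), and neither was called.

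The list of reported targets of growth hormone or prolactin, 12 genes of which 8 to 12 were tested in a class, had no call in 9 of the 11 classes and 1 in stromal-like and macrophage-like cells, the same gene in each. This was Akr1c18, the enzyme that inactivates progesterone and that prolactin is known to hold down in the corpus luteum. It fell in stromal-like cells (11.1 and 16.8 against 1.28 and 0.203 CPM, log2 fold change -4.22, edgeR adjusted p = 0.00805) and in macrophage-like cells (17.1 and 20.7 against 0.680 and 0 CPM, from 35, 44, 3 and 0 UMIs, edgeR adjusted p = 0.0064). The stromal-like call was lost with a replicate block, where no gene was called in that class. The main source of Akr1c18 was luteal-like cells, with 2643 and 466 CPM against 10.8 and 0.322 CPM, which was not called (edgeR adjusted p = 0.276). Within the latter luteal cluster it had 2636, 2293, 173 and 1.42 CPM. Luteal markers summed to 308, 793, 338 and 204 CPM in stromal-like and 492, 801, 282 and 165 CPM in macrophage-like cells, and the part of luteal RNA in these calls was not tested. Hsd17b7, which prolactin is known to raise in the corpus luteum, was also highest there, at 159, 689, 263 and 1008 CPM, with the groups overlapping. Pim1, a Stat5-responsive kinase, was highest in NK or T-like cells at 624 ± 114 CPM.

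Of the 25 genes of the wider Jak and Stat machinery, 22 to 25 were tested in a class and none of these was called by edgeR. The number with a log2 fold change above 0 ran from 13 of 25 in macrophage-like cells to 22 of 25 in GC-like cells (median 0.11 beside -0.02 over all genes tested), with 13 of 24 in endothelial-like and 22 of 24 in stromal-like cells. By class, Jak1, which serves other cytokine receptors, peaked in mural-like cells at 1199 ± 40.6 CPM, Stat3 was about as high in epithelial-like cells, at 779 ± 77.0 CPM, as in stromal-like cells, at a mean of 774 CPM, and Stat4 peaked in NK or T-like cells at 701 ± 123 CPM. Jak1 was even across libraries, with 1168, 1209.5, 1166 and 1252 CPM. Of the 11 other class I cytokine receptors, 5 to 9 were tested in a class and none of these was called by edgeR. Il7r, a lymphocyte receptor, had 279 ± 38.2 CPM in NK or T-like cells, and Osmr and Lifr, which bind ligands of the interleukin-6 family, had 159 ± 48.5 and 156 ± 34.0 CPM in endothelial-like cells.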

How the data were processed

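Single-cell RNA-seq was available for 4 libraries, 2 per group, grouped by the treatment in their labels. The deposited matrices hold whole-number UMI counts per gene and cell, made by the authors with Cell Ranger on GRCm38 (mm10). The study's methods mention ambient RNA removal, and whether the deposited counts had passed through it is not given in the sources used here. The submitters' processing notes name Seurat 4.1.0.

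Cells with at least 500 genes and 1000 UMIs, at most 10% mitochondrial and at most 0.1% haemoglobin UMIs were kept. Doublets were removed by score at 0.8% per 1000 cells, which took 5.74% to 19.4% of a library. Clusters were computed with Seurat 5.3.0 (3000 features, from which the 29 that belong to the 9 genes or the pathway lists were left out, 30 dimensions, resolution 0.8, and 0.5 within GC-like cells) and named by their markers, so a difference from the study may come from rebuilt names. Classes needed 20 cells in every library to be ordered or tested, which single luteal clusters did not have to meet.

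UMIs were summed per class and library and tested with edgeR 4.0.16 (TMM, filterByExpr, quasi-likelihood), with Benjamini-Hochberg adjustment over all genes tested. The scripts were tested on simulated data. DESeq2 1.42.0, other normalization, filters, thresholds, cluster settings, each library left out and a replicate block were alternatives. Named similar genes were the 5 with the highest r among genes reaching 20 CPM in a class, and from each pathway list those with the highest level in a class and those called are named. The members and lists were chosen with earlier results of these data known. SDs of levels and shares cover all 4 libraries, and tests rest on 2 a group.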

Additional observations from a re-analysis of the deposited data

How the results depend on the processing

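Mean levels of Ghr and Prlr in the named classes where each was highest moved by less than 1 SD in all 56 alternatives computed. Alternatives that left out a library could not have moved such a mean by 1 SD, so they show nothing about stability. Only those with other cell filters, doublet removal or clusters could have. Levels of the other members were not recomputed. Thinning to 1000 in place of 2000 UMIs lowered shares of cells with a UMI, to 38.0% for Ghr in atretic-like, 72.3% for Prlr, 8.12% for Stat5a and 15.8% for Stat5b in luteal-like, 63.1% for Socs2 in mural-like, 41.8% for Socs3 in stromal-like, and 9.27% for Cish and 17.3% for Jak2 in NK or T-like cells.

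The number of members called over the 11 classes, 2 as reported, depended on the setting. It was 7 with DESeq2 (1 in GC-like, 1 in theca-like and 3 in luteal-like cells beside the 2 reported) and 19 without a low-count filter (1 in GC-like, 2 in mural-like, 2 in cumulus-like, 1 in atretic-like, 2 in mitotic-like, 3 in mitotic-antral-like, 1 in stromal-like, 3 in luteal-like, 3 in macrophage-like and 1 in endothelial-like cells). Cumulus-like and stromal-like cells each had 0 at an adjusted p under 0.05 and with cells of over 2000 UMIs, and cumulus-like cells had 0 with doubled doublet removal and with finer clusters. All genes called per class ranged from 1 to 28 as reported, 32 to 447 with DESeq2 and 0 to 1084 without the filter. The causes were not tested.

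With single libraries left out, the lone library was assumed to vary like the other group. Calls made under that assumption are not counted here, for the members or for all genes. Log2 fold changes in GC-like cells that changed sign with a library left out were those of Ghr (range -0.921 to 1.35, positive at 1.35 without Fosl2F/F replicate 1 and 0.39 without Fosl2cKO replicate 1), Prlr (-1.537 to 0.058) and Stat5a (-0.278 to 0.082, with 0.007 without Fosl2cKO replicate 1), both highest without Fosl2F/F replicate 1, Jak2 (-0.15 without Fosl2F/F replicate 1 and -0.02 without Fosl2cKO replicate 1, to 0.517), Socs3 (-0.053 without Fosl2cKO replicate 1, to 0.439) and Cish (-0.875 to 0.12, the latter without Fosl2F/F replicate 2). Prlr in mural-like cells (-1.231 to 0.19) and Ghr in atretic-like cells (-1.138 to 0.54) turned positive without Fosl2F/F replicate 1, and Ghr in stromal-like cells (-0.064 to 0.414) turned negative without Fosl2cKO replicate 2. Socs1 kept a log2 fold change above 0 in 154 of 154 fits. Since both Fosl2cKO libraries lay above both Fosl2F/F libraries in every tested class, leaving a library out could hardly change this sign. The stricter threshold also repeats the main fits, so this count is no measure of stability.

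Libraries of the same number did not deviate together (r from -0.243 to 0.0715 over the classes). With 2 libraries a group these values cannot show whether such libraries shared a batch. With a replicate block 4 members were called in all, 0 in stromal-like, 1 in theca-like and 2 in macrophage-like cells, and the Ghr log2 fold change in GC-like cells was 0.11. All genes called per class then ranged from 0 to 72. With the pairing crossed, an alternative chosen after seeing the data, 9 were called, 1 each in mitotic-like, mitotic-antral-like, theca-like and endothelial-like and 3 in macrophage-like cells. All genes called per class ranged from 2 to 491 in that setting. The limits are 2 libraries a group, counting of 3′ ends, rebuilt cell classes and an uncertain mark of the knockout in the Fosl2 UMIs.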
